A study of Rattus norvegicus with 39 samples.

Results

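The voltage-gated and potassium ion channel genes comprised every probe set whose single gene symbol in the platform annotation began with Kcn, with Scn followed by a digit, or with Cacn, Hcn or Clcn. Kcnj8 was left out by the same rule. This gave 130 probe sets of 82 genes, among 7006 probe sets with 1 symbol and 8799 probe sets in all. Of these, 87 probe sets of 64 genes passed the filter on low signal and were tested, and 43 were not tested. Of 45 listed channel genes known in CA1 pyramidal cells, 32 had a probe set and 26 were tested, and the potassium channel genes Kcna2, Kcnn3, Kcnj3 and Kcnj6, the sodium channel beta subunit Scn2b and the calcium channel beta subunit Cacnb4 lay below the filter. The only sodium channel beta probe set was that of Scn2b.

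RNA came from the hippocampal CA1 region of 39 male Fisher 344 rats, 1 array per animal, all killed at 18 months of age. The LowInj group (n = 10) was adrenalectomized, carried a 25 mg corticosterone (CORT) pellet for 3 months and received 5 mg of CORT per day by intraperitoneal injection on 4 days of the last week. The IntermediateCort group (n = 9) was adrenalectomized and carried a 200 mg CORT pellet for 3 months. The LowCort group (n = 10) was adrenalectomized and carried a 25 mg CORT pellet for 3 months without injections. The Sham group (n = 10) had sham surgery, kept its adrenal glands and carried a pellet without hormone. The LowCort and LowInj animals also kept drinking a saline and sucrose solution, so drinking fluid and pellet dose cannot be told apart. The labels name no group given vehicle injections, so LowInj differed from LowCort by handling and injection as well as by hormone.

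Voltage-gated channels open when the membrane depolarizes. Sodium channels carry the upstroke of the action potential, calcium channels couple spikes to transmitter release and gene expression, and voltage-gated potassium channels repolarize the cell. Two-pore-domain and inward rectifier potassium channels set the resting potential, and calcium-activated potassium channels carry the afterhyperpolarization that follows a train of spikes. Corticosterone acts through the mineralocorticoid and glucocorticoid receptors, both present in CA1 pyramidal cells, where it is known to alter calcium currents and the afterhyperpolarization.

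Of 10 listed CA1 pyramidal marker genes, 5 had a probe set and all 5 were above the filter. All 4 CA2 and CA3 markers on the array, 8 of 9 interneuron markers and 5 of 6 astrocyte markers were also above it. The filter passed 6118 of 8740 probe sets, so passing it does not show which cells the dissected tissue held. Array medians lay between 7.27 and 7.33 log2 units. Of the 39 arrays, 4 had a weight under 0.5 when limma estimated array quality (LowInj subjects 34 and 35, LowCort subject 20 and Sham subject 6).

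One channel gene changed past the threshold. Kcnk1, which encodes a two-pore-domain leak channel of weak inward rectification, fell in LowCort relative to Sham. It was 1 of 87 tested channel probe sets (1.15%), against 1.68% of all 6118 tested probe sets in that comparison at an adjusted p under 0.05. For lower values alone the share of all tested probe sets was 0.637%. No other channel probe set was called in any comparison, while the shares of all tested probe sets called were 2.14% for IntermediateCort minus LowCort, 0.343% for LowInj minus LowCort, 0.196% for LowInj minus IntermediateCort, 0.0163% for IntermediateCort minus Sham and 0.229% for LowInj minus Sham. The moderated F test over the 4 groups called no channel probe set, against 2.27% of all tested. The channel shares lay near the background, so they are no result about channels as a class.

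A looser threshold gave a like picture. At an unadjusted p under 0.05 the F test passed 9 channel probe sets (10.3%), against 11.8% of all tested. The same threshold passed 11 for LowCort minus Sham (12.6%, against 13.6% of all tested) and 10 for IntermediateCort minus LowCort (11.5%, against 11.9%). It passed 8 for LowInj minus LowCort (9.2%, against 7.37%) and 6 for LowInj minus IntermediateCort (6.9%, against 11.4%). It passed 5 for IntermediateCort minus Sham (5.75%, against 4.22%) and 3 for LowInj minus Sham (3.45%, against 5.95%).

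The differences were small and their intervals narrow. For LowCort minus Sham, the 95% interval lay inside 0.5 log2 units (1.41-fold) either way for 85 of the 87 probe sets. Across the other comparisons that number ran between 83 and 86. Intervals inside 0.25 log2 units (1.19-fold) were fewer, between 56 and 65 of 87 over the 6 comparisons. In no comparison did the 2 groups of a channel probe set separate without overlap. Separation was not counted over all tested probe sets, so this is no result about channels. The within-group SD of the tested channel probe sets ran between 0.072 log2 units (Kcnab3) and 0.35 (Cacna1h, a T-type calcium channel). Of 20 genes with several tested probe sets, the sign matched on all of them for 13 to 17 genes, depending on the comparison. When the filter was dropped and all 130 channel probe sets were fitted, Kcnk1 in LowCort minus Sham was still the only channel call (limma adjusted p = 0.0323).

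The direction of the differences can be set beside that of all tested probe sets. The median channel difference was -0.02 for LowCort minus Sham, with 40.2% of probe sets positive, against a median of -0.01 and 47.1% positive over all tested. It was 0.04 for IntermediateCort minus LowCort, with 65.5% positive, against 0.01 and 52.8%. At an unadjusted p under 0.05, 9 channel probe sets were lower and 2 higher in LowCort than in Sham (10.3% and 2.3%, against 6.6% and 7.04% of all tested). At the same unadjusted threshold, 9 were higher and 1 lower in IntermediateCort than in LowCort (10.3% and 1.15%, against 4.9% and 6.98%). These comparisons share the 10 LowCort arrays and are not independent of each other.

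**Figure D1:**
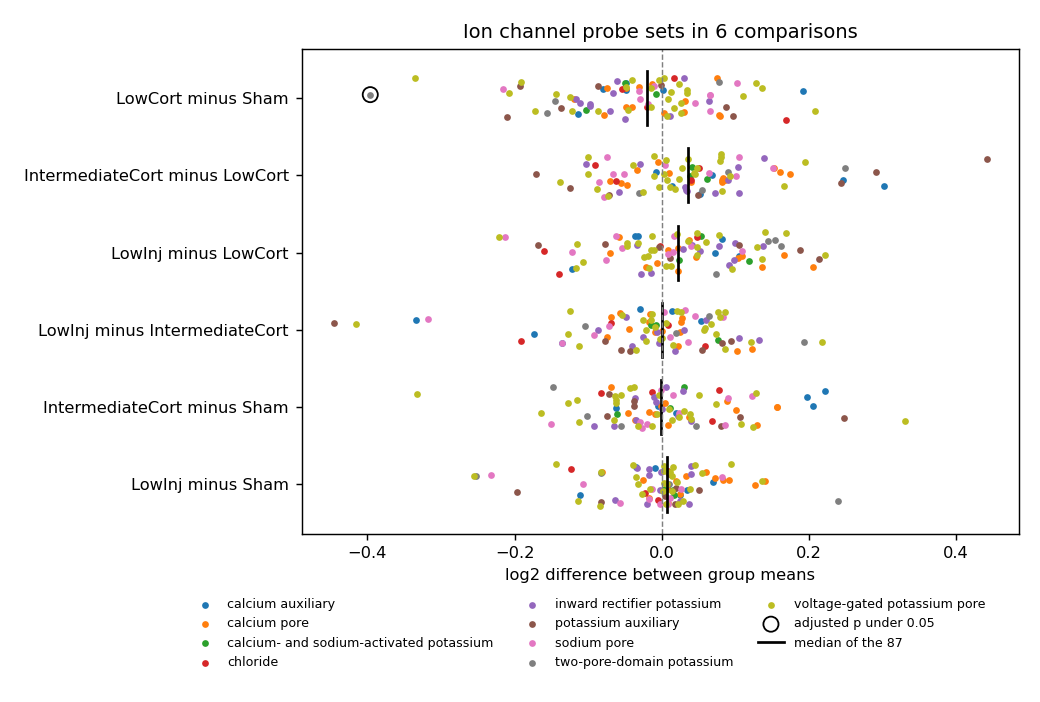
Log2 difference between group means (horizontal axis) for each of the 87 tested channel probe sets in the 6 comparisons (rows), coloured by family, with a black line at the median and a ring around the only called point, Kcnk1 in LowCort minus Sham. Points lie close to 0 in every row, and the widest single difference is -0.45 for Kcnab1 in LowInj minus IntermediateCort.

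The two-pore-domain potassium channels, which pass a background leak current at rest, had 4 probe sets of 3 genes, all tested. Log2 signals of Kcnk1 ran between 7.38 and 8.41 in LowInj (median 7.62) and between 7.64 and 8.19 in IntermediateCort (median 7.79). They ran between 7.23 and 7.94 in LowCort (median 7.56), against 7.61 and 8.35 in Sham (median 8.03). LowCort held the lowest values and Sham the highest median, with overlap between 7.61 and 7.94.

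Kcnk1 averaged 7.58 ± 0.22 in LowCort, against 7.97 ± 0.22 in Sham (SD, n = 10 each). The log2 difference was -0.40 (SE 0.10, 95% interval -0.60 to -0.19, 1.32-fold lower, limma p = 3.54e-04, adjusted p = 0.0278), and all 10 LowCort animals lay below the Sham mean. Counts of animals beyond a group mean, here and below, restate the values behind the difference and are no separate evidence. They were not made over all tested probe sets. In bulk tissue, fewer cells of a type and less RNA per cell cannot be told apart. Leaving out each of the 20 arrays in turn kept the difference between -0.437 and -0.355. The adjusted p then lay near the threshold, between 0.0503 and 0.0743 without any of 8 arrays (LowCort subjects 20, 23, 24, 28 and 29, Sham subjects 1, 2 and 3), and the call was kept without each of the other 12.

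The other comparisons of Kcnk1 missed the threshold. IntermediateCort averaged 7.83 ± 0.17 (SD, n = 9) and lay 0.25 above LowCort (SE 0.10, adjusted p = 0.292), with all 9 animals above the LowCort mean. LowInj averaged 7.72 ± 0.30 (SD, n = 10), with a log2 difference from Sham of -0.25 (adjusted p = 0.664), or -0.13 with the 3' to 5' measures of RNA length in the model. Its log2 difference from LowCort was 0.14, with an interval from -0.06 to 0.35, and it was 0.07 without LowInj subject 30, the highest animal of that group. The group means were ordered LowCort, LowInj, IntermediateCort and Sham from low to high, and only the ends of that order differed past the threshold. LowInj minus IntermediateCort was -0.10, and 0.042 with the RNA length measures, which turns the middle of that order round.

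Single markers of several cell type lists were called in the same comparison, in which 1.68% of all tested probe sets were called. The lists were chosen with earlier results of these data known. Gad1, which makes GABA in interneurons, was lower in LowCort than in Sham by a log2 difference of -0.31 (adjusted p = 0.00758), as 1 of 8 tested interneuron markers, of which 7 had negative differences. The summed interneuron level ran between 13.01 and 13.52 in LowCort, against 13.18 and 13.61 in Sham. Calb1, a calcium buffer of dentate granule cells that CA1 pyramidal cells also express, was the only tested dentate marker and had a difference of -0.61 (adjusted p = 4.57e-04), with signals between 8.87 and 9.86 in LowCort, against 9.66 and 10.21 in Sham. Of 5 tested CA1 markers, 3 had positive and 2 negative differences. Nr3c2 (0.44, adjusted p = 0.0218) and Dcn (0.42, adjusted p = 0.0135) were called higher in LowCort. Both were lower in IntermediateCort than in LowCort, by -0.36 (limma adjusted p = 0.096) and -0.48 (adjusted p = 0.00412). For these genes, cell content and a response to the hormone cannot be told apart. Pou3f1 (-0.013), Man1a1 (-0.012) and Camk2a (0.165) were not called. The sum of the 5 CA1 markers, which includes Nr3c2 and Dcn, ran between 10.82 and 11.11 in LowCort, against 10.22 and 11.02 in Sham. Slco1a4, a transporter of vessel cells, was 1 of 6 tested endothelial and pericyte markers and had a difference of 0.56 (adjusted p = 4.21e-04), with the list sum between 11.20 and 11.46 in LowCort, against 11.02 and 11.23 in Sham. Of those 6 markers, 3 had positive and 3 negative differences (median 0.015). Enpp2, which choroid plexus and oligodendrocytes express, was 1 of 4 tested choroid plexus and ependyma markers and had a difference of 0.40 (adjusted p = 0.0409), with the list sum between 10.40 and 10.80 in LowCort, against 10.41 and 10.65 in Sham. Of those 4 markers, 2 had positive and 2 negative differences (median 0.023). None of 4 CA2 and CA3, 5 oligodendrocyte, 4 microglia or 5 astrocyte markers tested was called, and the astrocyte sum ran between 13.60 and 13.91 in LowCort, against 13.41 and 14.11 in Sham. The part of these markers in the Kcnk1 result was not tested.

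Measures of RNA length also varied with Kcnk1. The difference between 3' and 5' Gapdh control probe sets averaged 0.81 ± 0.24 log2 units in LowCort, against 0.70 ± 0.22 in Sham (SD, n = 10 each). The same difference for actin averaged 0.93 ± 0.40 in LowCort, against 0.68 ± 0.41 in Sham (SD, n = 10 each). The Gapdh and actin differences together accounted for 42.5% of the within-group variance of Kcnk1, against a median of 16.9% over the channel probe sets and 19.6% over all tested. With both measures in the limma model, the Kcnk1 difference was -0.33 (adjusted p = 0.0167).

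Kcnk3, which encodes an acid-sensitive leak channel, was measured by 2 probe sets. On the first, signals ran between 7.33 and 7.48 in LowCort (median 7.39), against 7.30 and 7.74 in Sham (median 7.57), and between 7.38 and 7.68 in LowInj (median 7.54). All 10 LowCort animals lay below the Sham mean, and the range in LowCort was narrow. The difference from Sham was -0.15 (SE 0.05, limma adjusted p = 0.105), and LowInj minus LowCort was 0.15 (SE 0.05, adjusted p = 0.24). The second probe set gave -0.16 for LowCort minus Sham (adjusted p = 0.247). Without Sham subject 9, the first Kcnk3 probe set joined Kcnk1 among the calls.

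Kcnk5 encodes a leak channel that opens in alkaline conditions. Its signals ran between 6.59 and 7.13 in LowInj (median 6.88), against 6.11 and 7.01 in Sham (median 6.65). The difference of 0.24 missed the threshold (SE 0.10, limma adjusted p = 0.648), with 9 of 10 LowInj animals above the Sham mean.

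**Figure D2:**
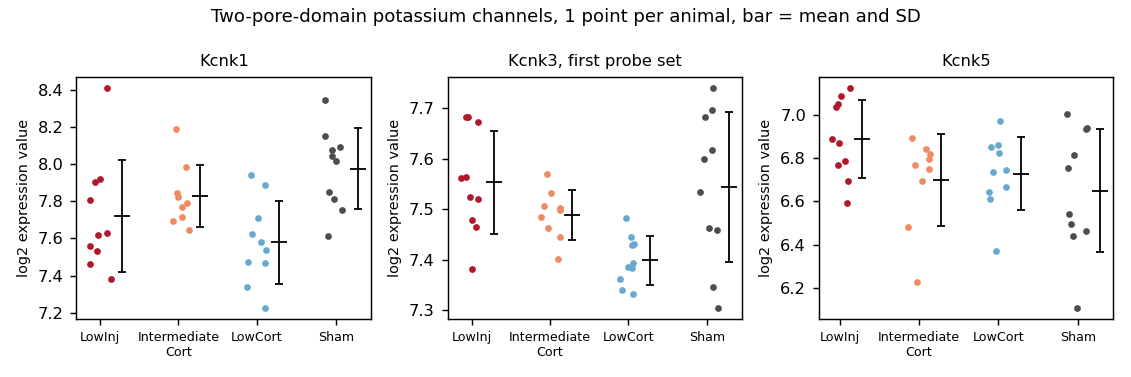
Log2 signal of each animal (points) and the group mean with its SD (bars) for Kcnk1, the first Kcnk3 probe set and Kcnk5, with groups from left to right LowInj, IntermediateCort, LowCort and Sham. Kcnk1 averaged 7.58 in LowCort, against 7.97 in Sham, and its ranges overlapped.

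The voltage-gated potassium pore subunits, which repolarize the membrane and delay the next spike, had 41 probe sets of 27 genes, of which 28 probe sets of 22 genes were tested and none was called. Their median difference was 0.00 for LowCort minus Sham, with 14 positive and 14 negative, and 0.01 for IntermediateCort minus LowCort, with 18 positive. Kcnd2 encodes the subunit that carries the A-type current of CA1 pyramidal dendrites. On one Kcnd2 probe set, signals ran between 7.14 and 8.19 in LowInj (median 7.80), between 7.85 and 8.43 in IntermediateCort (median 8.32), between 7.62 and 8.31 in LowCort (median 7.96) and between 7.46 and 8.13 in Sham (median 7.81). IntermediateCort had the highest median and overlapped every other group. Its subjects 12 to 16 ran between 8.319 and 8.426, against 7.851 and 7.952 in subjects 11 and 17 to 19. In LowCort, subjects 20 to 25 ran between 7.963 and 8.308, against 7.619 and 7.796 in subjects 26 to 29. Early and late subjects overlapped in Sham and LowInj. The part of subject number in the Kcnd2 differences was not tested.

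LowInj minus IntermediateCort was -0.42 for this Kcnd2 probe set (SE 0.11, 95% interval -0.64 to -0.19, limma p = 6.26e-04), and 9 of 10 LowInj animals lay below the IntermediateCort mean. The adjusted p was 0.111, and it was 0.0248 when arrays were weighted by quality. IntermediateCort minus Sham was 0.33 (SE 0.11, adjusted p = 0.776). The second Kcnd2 probe set had smaller differences of the same signs, -0.12 for LowInj minus IntermediateCort and 0.13 for IntermediateCort minus Sham, with intervals from -0.30 to 0.05 and from -0.05 to 0.30.

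Kcnc4 and Kcnc2 encode fast potassium channels that allow high firing rates, and Kcnc2 is prominent in interneurons. Kcnc4 signals ran between 6.27 and 7.14 in LowCort (median 6.71), against 6.74 and 7.51 in Sham (median 6.99), with a difference of -0.34 (SE 0.12, limma adjusted p = 0.141). IntermediateCort minus Sham was -0.33 (adjusted p = 0.824), and these comparisons share the Sham arrays. Kcnc2 signals ran between 7.67 and 8.65 in LowInj (median 8.08), against 7.98 and 8.79 in Sham (median 8.35), with a difference of -0.25 (SE 0.10, adjusted p = 0.579), or -0.148 with array weights. Its difference for LowCort minus Sham was -0.21 (adjusted p = 0.327). Groups overlapped for both genes.

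Kcnv1 encodes a silent subunit that forms no channel alone and modifies other subunits. Its signals ran between 6.39 and 7.06 in LowCort (median 6.58), against 6.14 and 6.60 in Sham (median 6.43). The difference of 0.21 had an adjusted p of 0.224 in limma, and with the RNA length measures in the model it was 0.28 with an adjusted p of 0.00399. Those measures accounted for 54.5% of the within-group variance of Kcnv1.

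The ether-a-go-go related genes Kcnh2 and Kcnh3 encode channels that damp excitability near threshold. One Kcnh2 probe set had a LowCort minus Sham difference of -0.17 (limma adjusted p = 0.29) and all 10 LowCort animals below the Sham mean, and the difference was -0.11 without Sham subject 6. The other Kcnh2 probe set averaged 8.85 in LowCort, against 8.9 in Sham. One Kcnh3 probe set had a difference of 0.17 for LowInj minus LowCort (adjusted p = 0.448), with all 10 LowInj animals above the LowCort mean. The second Kcnh3 probe set averaged 11.06 in LowInj and 11.07 in LowCort. Kcna1, a subunit of low-threshold channels, Kcna4, a subunit of fast-inactivating channels, and Kcnq3, a subunit of the M-current, had no difference beyond 0.14 in any comparison.

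The potassium channel auxiliary subunits, which bind pore subunits and set their inactivation and trafficking, had 7 tested probe sets of 5 genes, and none was called. Kcnab1 encodes a beta subunit that confers fast inactivation on Kcna channels. Its signals ran between 8.68 and 9.65 in LowInj (median 9.30), between 9.14 and 10.12 in IntermediateCort (median 9.67), between 8.87 and 9.80 in LowCort (median 9.19) and between 8.93 and 10.06 in Sham (median 9.47). IntermediateCort was highest, and its range overlapped each of the others.

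For Kcnab1, IntermediateCort minus LowCort was 0.44 (SE 0.14, 95% interval 0.16 to 0.72, limma p = 0.00287), and 8 of 9 IntermediateCort animals lay above the LowCort mean. LowInj minus IntermediateCort was -0.45 (SE 0.14, p = 0.00268), with all 10 LowInj animals below the IntermediateCort mean. The adjusted p-values were 0.096 and 0.179. With array weights the first was 0.0096, and without IntermediateCort subject 19 or LowCort subject 21 it was 0.0404 and 0.0377. The RNA length measures accounted for 61.0% of the within-group variance of this probe set. The Gapdh measure averaged 1.03 ± 0.60 in LowInj, against 0.63 ± 0.21 in IntermediateCort (SD, n = 10 and 9). The actin measure averaged 0.79 ± 0.69 in LowInj, against 0.65 ± 0.36 in IntermediateCort. LowInj subject 35 had 2.413 for Gapdh and 0.043 for actin. With those measures in the model, LowInj minus IntermediateCort was -0.185.

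Kcnab2, the most abundant beta subunit in brain, had 2 probe sets. IntermediateCort minus LowCort was 0.24 on one and 0.29 on the other, with limma adjusted p of 0.329 and 0.324. With the RNA length measures the second was 0.145. Kcnab3 signals ran between 7.37 and 7.59 in LowInj (median 7.41) and between 7.25 and 7.38 in LowCort (median 7.32), against 7.24 and 7.56 in Sham (median 7.38). The LowCort range was narrow, and LowCort minus Sham was -0.09 (adjusted p = 0.276). Kcne1, a small single-pass subunit, had a difference of -0.17 for LowInj minus LowCort (adjusted p = 0.543), with all 10 LowInj animals below the LowCort mean.

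Kcnab1 and Kcnd2 had the largest LowInj minus IntermediateCort differences of the channel genes, so their RefSeq promoter sequences in rat assembly GRCr8 are printed from 250 bases before to 50 bases after the annotated start, 5′ to 3′ on the plus strand. Kcnab1 lies at chr2:151614301-151614600 and Kcnd2 at chr4:50742235-50742534. Capitals mark a match to AGAACA, the hexamer that forms each arm of a glucocorticoid response element, on either strand, here read as TGTTCT beginning 237 bases before the Kcnab1 start. The Kcnd2 window has no match to these letters.
Kcnab1: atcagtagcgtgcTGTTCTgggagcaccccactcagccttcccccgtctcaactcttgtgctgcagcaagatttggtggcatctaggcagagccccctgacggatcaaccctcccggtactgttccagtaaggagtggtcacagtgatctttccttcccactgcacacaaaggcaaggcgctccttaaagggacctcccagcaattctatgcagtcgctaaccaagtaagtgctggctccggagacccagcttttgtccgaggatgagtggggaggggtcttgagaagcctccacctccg
Kcnd2: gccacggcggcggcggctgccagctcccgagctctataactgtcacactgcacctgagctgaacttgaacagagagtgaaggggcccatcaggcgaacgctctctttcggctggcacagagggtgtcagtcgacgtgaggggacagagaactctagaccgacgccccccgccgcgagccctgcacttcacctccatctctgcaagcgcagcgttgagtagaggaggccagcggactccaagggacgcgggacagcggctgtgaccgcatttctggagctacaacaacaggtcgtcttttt

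The same search was made in 71 promoters of 62 channel genes. The hexamer occurred in 10 of them (14.1%, 8 genes), against 6923 of 33469 rat promoters of the same length (20.7%). The palindromic response element, in which AGAACA and TGTTCT are separated by any 3 bases and which therefore contains the hexamer, was found in 0 of the 71 and in 5 of all promoters (0.0149%). A match describes the letters alone and is not evidence of binding. No entry was available for Kcnk1.

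**Figure D3:**
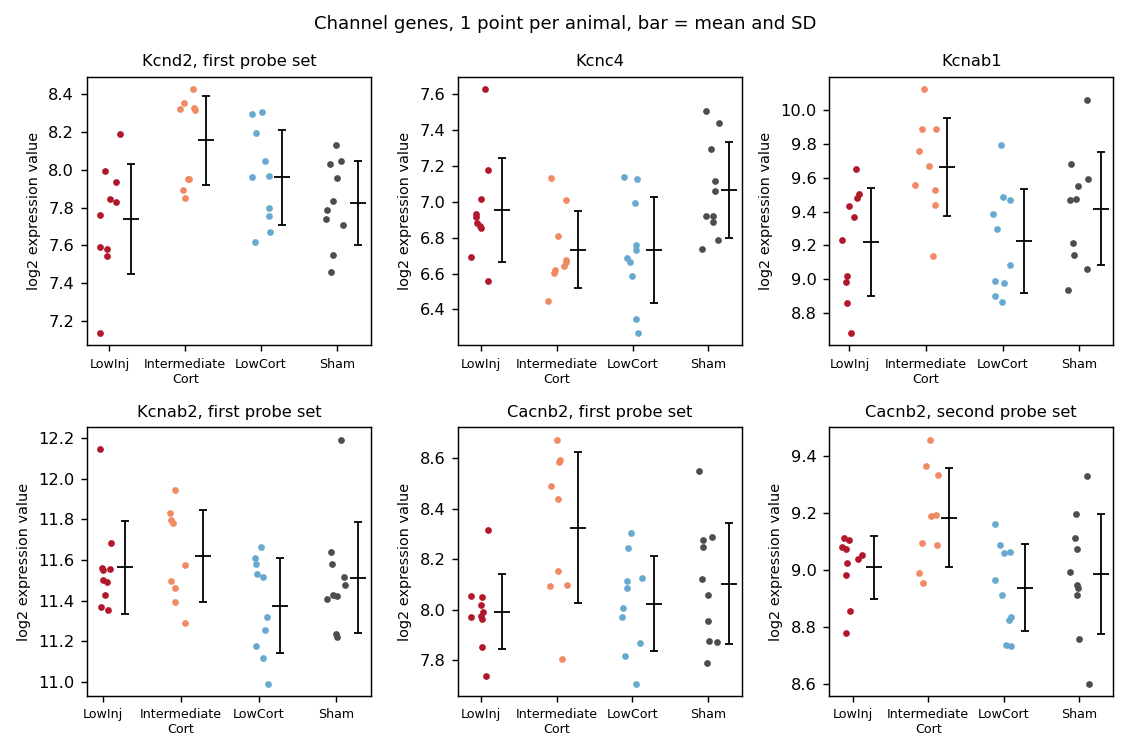
Log2 signal of each animal (points) and the group mean with its SD (bars) for Kcnd2, Kcnc4, Kcnab1, one Kcnab2 probe set and both Cacnb2 probe sets, with groups from left to right LowInj, IntermediateCort, LowCort and Sham. Kcnd2 averaged 7.74 in LowInj, against 8.16 in IntermediateCort, and Kcnab1 averaged 9.22 in LowInj, against 9.67 in IntermediateCort.

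The calcium- and sodium-activated potassium channels underlie the afterhyperpolarization, and only Kcnn1 and Kcnma1 were tested, with 3 probe sets. Kcnn1, a small-conductance calcium-activated channel, averaged 7.03 in LowCort, against 7.13 in Sham, with a difference of -0.10 (95% interval -0.24 to 0.04), or -0.07 without LowCort subject 28. On the Kcnma1 probe sets, which read the large-conductance channel, the largest difference was 0.06, and the LowCort minus Sham intervals were -0.17 to 0.07 and -0.15 to 0.14. Kcnn2 had no probe set under that symbol alone and was not analysed here.

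The inward rectifiers, which hold the membrane near rest and respond to ATP or G proteins, had 11 tested probe sets of 8 genes. None was called. Kcnj11, the pore of the ATP-sensitive channel, had a difference of 0.14 for IntermediateCort minus LowCort on one probe set (SE 0.06, limma adjusted p = 0.284). Kcnj4, an inward rectifier of forebrain neurons, had a difference of 0.13 for LowInj minus IntermediateCort (SE 0.05, adjusted p = 0.317), with all 10 LowInj animals above the IntermediateCort mean. Kcnj10, the main potassium channel of astrocytes, differed by at most 0.07 in any comparison.

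The voltage-gated sodium channel pore subunits, which carry the action potential upstroke, had 10 tested probe sets of 7 genes, and none was called. Scn2a, the subunit of excitatory axons, ran between 8.10 and 9.39 in LowInj (median 9.09), between 9.17 and 9.38 in IntermediateCort (median 9.31), between 8.76 and 9.64 in LowCort (median 9.11) and between 8.20 and 9.42 in Sham (median 9.30). IntermediateCort was tight, and the LowInj range was wide. The LowInj minus IntermediateCort difference was -0.32 (SE 0.14, limma adjusted p = 0.362). LowInj subjects 34 and 35, both of low array weight, were the lowest of their group, and the difference was -0.124 without the 4 arrays of low weight and -0.113 with the RNA length measures. Scn1a, the subunit known for interneuron firing, averaged 7.95 ± 0.22 in LowCort, against 8.17 ± 0.17 in Sham (SD, n = 10 each), with a difference of -0.22 (adjusted p = 0.383). With the RNA length measures it was -0.30 (adjusted p = 0.0459). Scn8a, the subunit of nodes and axon initial segments, had 0.15 for IntermediateCort minus LowCort on one probe set (adjusted p = 0.396).

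The calcium channel pore subunits had 14 tested probe sets of 8 genes, and in no comparison did any reach even an unadjusted p under 0.05. The 4 probe sets of Cacna1a, the P/Q-type channel of presynaptic terminals, gave differences between 0.09 and 0.17 for IntermediateCort minus LowCort. The 3 probe sets of Cacna1c, the L-type channel linked to calcium currents of aged neurons, gave differences of at most 0.10. The LowCort minus Sham intervals for those were -0.14 to 0.05, -0.14 to 0.12 and -0.08 to 0.14. Cacna1d, the second neuronal L-type gene, had its largest difference in IntermediateCort minus Sham, 0.16 with an interval from -0.04 to 0.36. These intervals bound a change without showing that the groups were alike.

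Of the auxiliary calcium channel subunits, which carry the pore to the membrane and shape its gating, 6 probe sets of 5 genes were tested and none was called. Cacnb2 encodes a beta subunit and had 2 probe sets. On the first, signals ran between 7.74 and 8.32 in LowInj (median 7.98), between 7.80 and 8.67 in IntermediateCort (median 8.44), between 7.71 and 8.30 in LowCort (median 8.05) and between 7.79 and 8.55 in Sham (median 8.09). IntermediateCort had the highest median, with overlap in every pair. Its subjects 12 to 16 ran between 8.438 and 8.674, against 7.804 and 8.098 in subjects 17 to 19, with subject 11 at 8.153. The part of subject number in the Cacnb2 differences was not tested. On the second, they ran between 8.78 and 9.11 in LowInj (median 9.05), between 8.95 and 9.46 in IntermediateCort (median 9.19), between 8.73 and 9.16 in LowCort (median 8.94) and between 8.60 and 9.33 in Sham (median 8.97).

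The Cacnb2 probe sets gave IntermediateCort minus LowCort differences of 0.30 (SE 0.10, limma adjusted p = 0.117) and 0.25 (SE 0.07, adjusted p = 0.0823). The second had all 9 IntermediateCort animals above the LowCort mean, and the first 8 of 9. LowInj minus IntermediateCort was -0.33 and -0.17 (adjusted p = 0.153 and 0.367), with all 10 LowInj animals below the IntermediateCort mean on both. The first probe set passed the threshold there with array weights (-0.35, adjusted p = 0.0284) and with subject order as a covariate (-0.334, adjusted p = 0.0357). With array weights both probe sets passed the threshold for IntermediateCort minus LowCort, with adjusted p of 0.0147 and 0.0118. The first also passed without IntermediateCort subject 19 (adjusted p = 0.0271), and the second without IntermediateCort subject 11 or LowCort subject 20 (adjusted p = 0.0482 and 0.0453). Cacna2d1, the subunit that binds gabapentin, had 0.19 for LowCort minus Sham (SE 0.09, adjusted p = 0.299), or 0.118 with array weights. Cacng1 had -0.11 (adjusted p = 0.154).

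**Figure D4:**
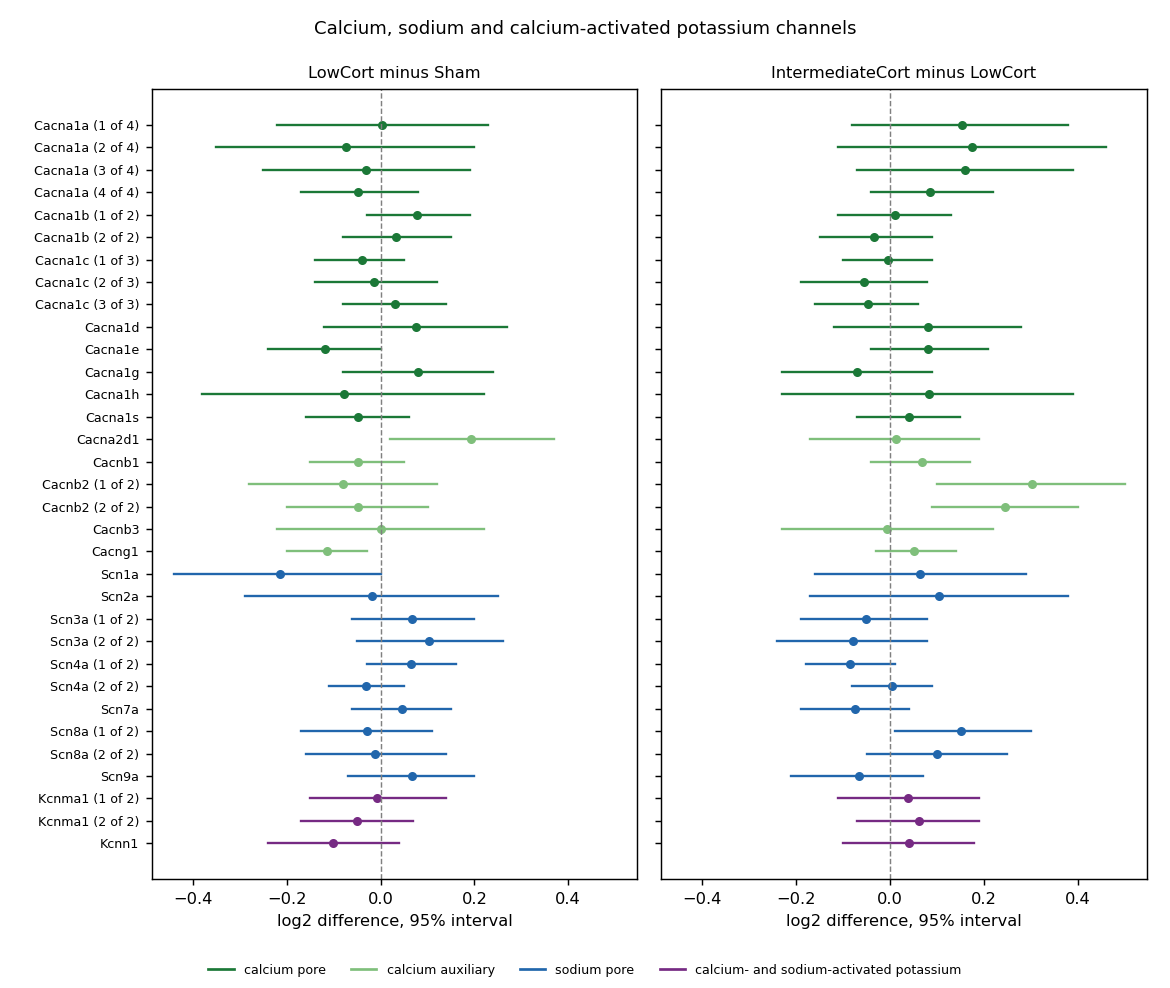
Log2 difference between group means with its 95% interval (horizontal axis) for the tested calcium, sodium and calcium-activated potassium channel probe sets (rows, coloured by family), for LowCort minus Sham on the left and IntermediateCort minus LowCort on the right. Cacnb2 lies 0.30 above LowCort in IntermediateCort on one probe set, and the intervals of the Cacna1c probe sets include 0.

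The chloride channels and transporters of the Clcn family had 4 tested probe sets, and none passed an unadjusted p under 0.05 in any comparison. Clcn3, a chloride-proton exchanger of endosomes and synaptic vesicles, had the largest LowCort minus Sham difference, 0.17 with an interval from -0.05 to 0.39. It was 0.11 without Sham subject 1 and 0.07 with the RNA length measures.

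A list of 28 channel partner genes (anchors, kinases and accessory proteins) had 19 on the array and 15 tested. Only Sgk1, a glucocorticoid-induced kinase known to raise the surface level of several channels, was called: LowCort minus Sham was -1.50 (SE 0.17, limma adjusted p = 2.90e-07), LowInj minus Sham -1.38 (adjusted p = 6.78e-06) and IntermediateCort minus LowCort 0.71 (adjusted p = 0.0213). Sgk1 had 0.12 for LowInj minus LowCort (SE 0.17, limma adjusted p = 0.883). The median partner difference was -0.01 for LowCort minus Sham and -0.16 for LowInj minus IntermediateCort, where 11 of 15 were negative, against medians of -0.01 and 0.01 over all tested probe sets. For IntermediateCort minus LowCort and IntermediateCort minus Sham, 12 of 15 were positive (median 0.06 in both). No partner value is given here with the RNA length measures or array weights.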

How the data were processed

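The deposited values were log2 signals of 8799 probe sets on 39 Affymetrix arrays (2.82 to 14.37), as the authors deposited them. The submitters' processing notes name MAS5, RMA and R 2.7.1, with roles not given in the sources used here. No values were renormalized. Groups came from the sample labels. After leaving out 59 control probe sets, probe sets at or above the 30th percentile of mean signal (6.28) were kept, 6118 in all. A group-means model over all arrays was fitted with limma 3.58.1 in R 4.3.3 (35 residual degrees of freedom), with Benjamini-Hochberg adjustment over all 6118 and a threshold of 0.05. Its code was run on simulated data with independent noise and shifts added to LowCort. That simulation had no shared effect of array quality, RNA length or subject order, so it does not cover these. Each probe set was kept apart, and levels were not set against those of other probe sets. The labels name separate animals, so spread includes animal and array error. On some probe sets it also followed subject number. One Cacna1a probe set ran between 7.452 and 7.847 in Sham subjects 1 to 6, against 7.051 and 7.294 in subjects 7 to 10. In LowInj it ran between 7.441 and 8.059 in subjects 30 to 35, against 7.009 and 7.222 in subjects 36 to 39. In IntermediateCort it ran between 7.63 and 7.89 in subjects 11 to 16, against 7.04 and 7.14 in subjects 17 to 19. In LowCort it ran between 7.457 and 7.788 in subjects 21 to 25, against 7.014 and 7.129 in subjects 26 to 29, with subject 20 at 6.935. The main model had no term for this order, and its source was not tested. Channel genes, marker and partner lists were chosen with earlier results of these data known. Named genes were all called members, the 5 highest and 5 lowest differences per comparison, the smallest F test p per family and a list of CA1 channel genes, from which those carrying each paragraph were taken. Kcnh2, Kcnab3, Kcnj10, Kcnj11 and Cacng1 were described outside these rules and are not in the count of refitted results below. Array number limits the precision.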

Additional observations from a re-analysis of the deposited data

Results flagged for a closer look

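Single animals stood apart from their group in 9 of the 104 groups examined (26 probe sets of 22 genes), where the gap to the nearest animal passed 0.466 of the range for 10 samples. Chance flags about 1 in 20 groups. LowInj subject 30 accounted for 4: Kcnk1 at 8.41 (gap 0.47 of the range), Scn8a at 7.84 (0.51), Kcna6 at 6.93 (0.61) and one Kcnab2 probe set at 8.96 (0.55), each above the other animals. Sham subject 6 accounted for 3: Scn2a at 8.2 (0.68), Kcnh2 at 8.48 (0.50) and the other Kcnab2 probe set at 12.19 (0.57). LowInj subject 34 had 12.14 on that Kcnab2 probe set (0.58). Kcne1 was lowest in LowInj subject 39, at 7.14 (0.60). The array weights of LowInj subjects 30 and 34 and Sham subject 6 were 0.627, 0.281 and 0.292.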

How the results depend on the processing

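Named results were refitted under up to 9 alternatives. Only those with a limma unadjusted p under 0.05, or a difference above a small set size, in the main fit were counted. Smaller differences, whose sign turns most easily, were left out, so the count does not describe them. Of 1005 fits of these 115 results, 981 kept their direction and side of the threshold, 14 passed it under the alternative only, 10 reversed and 0 lost it. Leaving out single arrays put the channel calls between 0 and 2 for LowCort minus Sham (1 with all arrays), where the Kcnk1 call was lost in 8 of 20 fits, and between 0 and 2 for IntermediateCort minus LowCort (0 with all arrays). Leaving out single arrays reversed none of these 115 results. In the LowCort minus Sham fits, calls over all tested probe sets ran between 66 and 131. Channel calls under the F test (0 as reported) were 5 with array weights (5.75%, against 5.02% of all tested). They were 1 with the RNA length covariates (1.15%, against 3.01%) and 2 with subject order as covariate (2.3%, against 3.74%). For LowCort minus Sham they were 3 with the RNA length covariates (3.45%, against 2.86%) and 2 with subject order (2.3%, against 3.02%). For IntermediateCort minus LowCort (0 as reported) they were 4 with array weights (4.6%, against 5.52%) and 1 with the RNA length covariates (1.15%, against 2.96%). They were 2 with subject order (2.3%, against 3.01%) and 1 without the 4 arrays of low weight (1.15%, against 3.2%). For LowInj minus IntermediateCort (0 as reported) they were 2 with array weights (2.3%, against 1.72%) and 1 with subject order (1.15%, against 0.523%). Kcnk1 in LowCort minus Sham kept its call in all 9 alternatives (-0.396 to -0.327, adjusted p 0.0121 to 0.0463). The reversed differences were uncalled and small. Cacna1a for LowInj minus LowCort was -0.055 with array weights, -0.009 with the covariates and -0.038 without the arrays of low weight, and Kcna1 was -0.01 with array weights. With the covariates, LowInj minus IntermediateCort was -0.043 for Cacna1h and 0.042 for Kcnk1, and LowInj minus Sham was -0.01 for Cacna1h, 0.012 for Clcn4 and 0.02 for Kcnab1. Kcnc2 was 0.022 for LowInj minus IntermediateCort with array weights. Calls over all probe sets moved by over 1.5 times as well. The F test gave 307 with array weights and 229 with subject order (139 as reported). LowCort minus Sham gave 170 with array weights, 175 with the covariates and 185 with subject order (103). IntermediateCort minus LowCort gave 338 with array weights (131). LowInj minus LowCort gave 50 with array weights and 36 with subject order (21). LowInj minus IntermediateCort gave 6 with the 50th percentile filter, 105 with array weights, 19 with the covariates, 32 with subject order and 0 with the 2 groups alone (12). IntermediateCort minus Sham gave 2, 12, 4, 3 and 2 with array weights, covariates, the 2 groups alone, subject order and no low-weight arrays (1). LowInj minus Sham gave 5, 33, 22, 1 and 30 with the 50th percentile filter, array weights, covariates, the 2 groups alone and subject order (14). Subject order, the arrays of low weight and the single arrays left out were chosen after seeing the data, and the cause of these moves was not tested. No paired analysis was possible because each subject number occurs once, so no number is shared between groups.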
